A study of Mus musculus with 43 samples.

Results

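The genes followed here serve Toll-like receptor sensing in mouse brain. There are 10: the co-receptor gene Cd14, the paired genes Ly86 and Cd180, the cell surface receptors Tlr1, Tlr2 and Tlr4, the endosomal receptors Tlr3, Tlr7 and Tlr13, and the adaptor Myd88. They were chosen by name, with earlier results of these data known, so counts of members set beside all genes are a description. They were taken by gene symbol from the 55804 gene rows of each of 2 tables, without a limit on abundance. All 10 are listed in both tables. No library lists any of the 10 at 0.

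Toll-like receptors bind conserved microbial molecules and molecules released by damaged cells, and in the brain microglia express most of them. Cd14 passes lipopolysaccharide and other ligands to Tlr4 and Tlr2, which signal from the cell surface, and Tlr1 pairs with Tlr2. Tlr3, Tlr7 and Tlr13 read nucleic acids inside endosomes. Myd88 carries the signal of these receptors to NF-kB, except for Tlr3, which uses Ticam1. Cd180 resembles Tlr4 but has no signalling domain, and the product of Ly86 holds it at the surface. Cd14, Tlr2 and Tlr4 have been described as microglial receptors for fibrillar amyloid beta.

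The values are TPM, a relative abundance corrected for transcript length, from RNA sequencing of 43 brain libraries in 2 cohorts. AppNLGF mice carry Alzheimer mutations knocked into both copies of App, with the amyloid beta stretch made human (AppNL-G-F/NL-G-F), and APP/TAU mice carry mutant human APP and TAU (APPV717I::TAUP301L). The 6 month cohort held 13 AppNLGF libraries given CDDO-2P-Im (2P-Im), 11 AppNLGF vehicle libraries and 4 wild type (WT) vehicle libraries. The 11 month cohort held 5 libraries each of APP/TAU 2P-Im, APP/TAU vehicle and WT vehicle. 2P-Im is a synthetic triterpenoid that induces NRF2, a transcription factor of antioxidant genes that also restrains inflammatory gene expression. The oral dose was 30 µmol/kg, with 3 doses in each week. Dosing lasted 4 weeks in the AppNLGF cohort and 2 weeks in the APP/TAU cohort, and the vehicle was a mixture of DMSO, Chremophol EL (as the labels spell it) and PBS. The labels give neither the dosing schedule of the WT mice, nor the strain background, the brain region, the sex, or the promoters of the transgenes. Libraries are numbered, but whether different numbers mean different animals is not said, and p-values describe only the spread among libraries.

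TPM keep no sequencing depth, so no counting error can be given. Libraries 1 and 2 of AppNLGF 2P-Im stood apart, with summed TPM of 15 plaque-associated microglia genes of 217 and 221, against 287 to 462 in the other 11 libraries of that group. Folds of AppNLGF 2P-Im are therefore also given without these libraries. Since they were chosen for low plaque-associated sums, leaving them out by itself raises folds against WT of genes that follow these sums. It likewise makes decreases of such genes against AppNLGF vehicle smaller. The folds and calls without them are a description and no independent support. AppNLGF vehicle library 1 was also low in its group (291, next lowest 354) and was kept. A single RNA for which the reference lists no symbol took a mean 29.5% of TPM in APP/TAU 2P-Im, 22.0% in APP/TAU vehicle and 30.1% in WT vehicle of 11 months, so each comparison was repeated after median-ratio scaling, which aligns the typical gene between libraries. Of 18 microglia markers, only Tyrobp is listed at 0 throughout a group (the WT libraries of 6 months and APP/TAU 2P-Im). Fewer cells of a type and less RNA per cell cannot be told apart in such bulk tissue.

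Ly86 was the most abundant member in every group and Tlr1 the least abundant. Tlr3 came second in every group. In AppNLGF vehicle libraries the mean TPM ran from 13.0 for Ly86, 3.12 for Tlr3, 2.89 for Cd14, 2.68 for Cd180, 2.48 for Tlr7 and 2.09 for Myd88 to 1.37 for Tlr13, 0.910 for Tlr2, 0.762 for Tlr4 and 0.322 for Tlr1. Between neighbours in that order, the ranges of mean ± SD did not overlap from Ly86 to Tlr3, from Myd88 to Tlr13 and from Tlr4 to Tlr1, and overlapped at the other 6 steps. In WT libraries of 6 months Myd88 had rank 3 and Cd14 rank 6. Cd14 had 1.15 ± 0.30 TPM there (SD, n = 4). Genes were tested where their mean over a table was at least 1 TPM, which 7 members passed in the AppNLGF table (all but Tlr1, Tlr2 and Tlr4) and 6 in the APP/TAU table (Tlr13 also fell short). The members below this minimum are given from a fit with a minimum of 0.1 TPM.

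**Figure D1:**
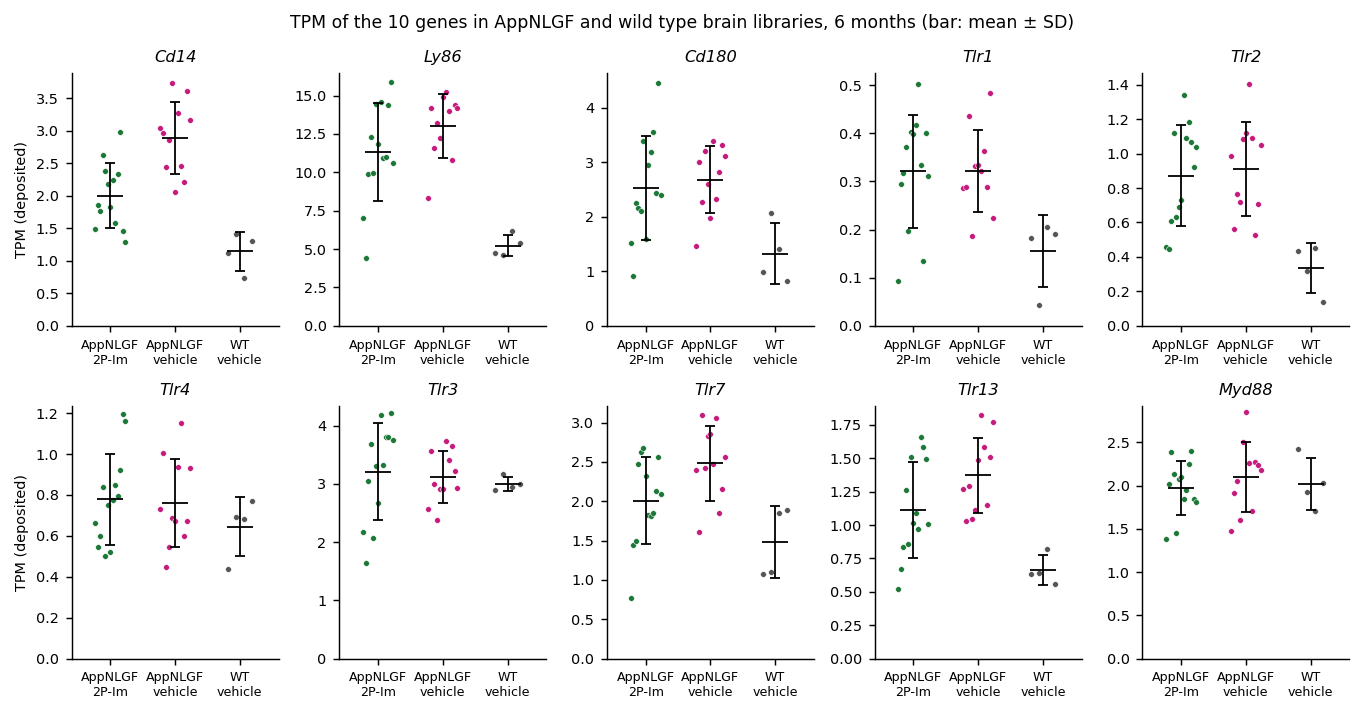
TPM of each of the 10 genes in 13 AppNLGF 2P-Im, 11 AppNLGF vehicle and 4 WT vehicle libraries of 6 months; points are libraries, bars the mean ± SD, and each panel has its own axis from 0. For Cd14, Ly86, Tlr2 and Tlr13 every AppNLGF vehicle library lies above every WT library, while Tlr3, Tlr4 and Myd88 overlap.

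The first comparison, AppNLGF vehicle against WT vehicle at 6 months, asks how the genes stand in brains of the amyloid model. Ly86 and Cd14 rose, to 2.49 and 2.52 times the WT mean TPM. Cd180, Tlr2, Tlr13, Tlr7 and Tlr1 had higher means in AppNLGF vehicle, without passing the test on deposited TPM, and Tlr3, Tlr4 and Myd88 had means within 1.18 times those of WT. Of the 7 tested members 2 were called (limma on log2(TPM + 1), p adjusted over 16776 genes, called below 0.05) and both were higher. Over all tested genes 0.28% were called, and 0.221% were called and higher. The median log2 fold was 0.50 over the 7 members and -0.03 over all genes tested. After median-ratio scaling 4 of the 7 members were called, all higher, beside 0.691% of all genes.

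Ly86, which encodes the partner of Cd180 (chr13:37345208-37419036, plus strand, protein-coding, GRCm38), had 8.35, 14.0 and 15.2 TPM as the lowest, median and highest of the AppNLGF vehicle libraries. The 4 WT libraries had 4.74, 4.63, 6.15 and 5.40 TPM. All 11 AppNLGF vehicle libraries were above every WT library. The log2 fold was 1.16 ± 0.19 (SE, limma adjusted p = 0.00173). Xist, the RNA of the inactive X chromosome, was above 10 TPM in 5 of the 11 AppNLGF vehicle libraries and in none of the 4 WT libraries. Among libraries with Xist at or below 10 TPM the fold of Ly86 was 1.13 ± 0.25 and was not called (adjusted p = 0.141, with 0.107% of genes called).

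Cd14, the lipopolysaccharide co-receptor gene on chromosome 18, had 2.06, 2.97 and 3.73 TPM as the lowest, median and highest of the AppNLGF vehicle libraries, against 1.12, 1.41, 0.734 and 1.31 TPM in the 4 WT libraries. The groups did not overlap. The log2 fold was 0.86 ± 0.13 (SE, limma adjusted p = 0.00076). Such a complete separation upwards was seen in 67 of the 16776 tested genes, or 0.399%, and in 3 of the 7 tested members (Cd14, Ly86 and Tlr13).

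Cd180, the receptor that Ly86 holds at the surface (chr13:102693558-102739629, plus strand), ranged from 1.47 through a median of 2.82 to 3.38 TPM in AppNLGF vehicle libraries, against 0.990, 2.07, 1.42 and 0.827 TPM in WT libraries. WT library 2 lay inside the AppNLGF range and 9 of the 11 AppNLGF vehicle libraries were above it. The log2 fold was 0.67 ± 0.19 (limma adjusted p = 0.279), and 0.69 ± 0.16 after median-ratio scaling (adjusted p = 0.0399). Of 18 alternative fits that did not leave out a single library, 2 called Cd180. It was not called with scaling and an Xist term together.

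Tlr2, the receptor for bacterial lipoproteins (chr3:83836272-83841767, minus strand), ranged from 0.529 through 0.986 to 1.40 TPM in AppNLGF vehicle libraries, against 0.435, 0.319, 0.454 and 0.140 TPM in WT libraries, without overlap. It was below the minimum for the test. In the fit with a minimum of 0.1 TPM, 0.21% of 24264 genes were called. Tlr2 had a log2 fold of 0.51 ± 0.13 there (limma adjusted p = 0.113). With median-ratio scaling it was 0.51 ± 0.11 (adjusted p = 0.017, with 0.453% of genes called). In that scaled fit 4 of all 10 members were called, so not every member called at the higher minimum was called there. With scaling and an Xist term together Tlr2 was not called. On this log2(TPM + 1) scale changes of genes below 1 TPM are understated: the ratio of the mean TPM was 2.70, and with a pseudocount of 0.1 the log2 fold was 1.23 ± 0.27 (limma adjusted p = 0.0358, with 0.251% of genes called).

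Tlr13, the mouse receptor for bacterial ribosomal RNA (chrX:106143204-106160493, plus strand), ranged from 1.03 through 1.29 to 1.83 TPM in AppNLGF vehicle libraries. WT libraries had 0.633, 0.638, 0.824 and 0.558 TPM, all lower. The log2 fold was 0.50 ± 0.13 (limma adjusted p = 0.13), and 0.51 ± 0.10 after median-ratio scaling (adjusted p = 0.00626). With scaling and an Xist term together it was 0.49 ± 0.11 (limma adjusted p = 0.0252).

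Tlr7, the single-stranded RNA receptor (chrX:167304929-167330558, minus strand), ranged from 1.61 through 2.48 to 3.09 TPM in AppNLGF vehicle libraries, against 1.08, 1.10, 1.86 and 1.89 TPM in WT libraries. The 2 groups overlapped, and the log2 fold of 0.49 ± 0.15 was not called with deposited or with scaled TPM (limma adjusted p = 0.359 and 0.169). Among AppNLGF vehicle libraries Tlr7 averaged 2.75 ± 0.27 TPM with Xist above 10 TPM (n = 5) and 2.26 ± 0.51 TPM in the others (n = 6). No WT library was above 10 TPM of Xist, so the level of Xist and the genotype are partly mixed here. Tlr1, the lipoprotein receptor that pairs with Tlr2 (chr5:64924679-64933563, minus strand), averaged 0.322 ± 0.085 TPM in AppNLGF vehicle and 0.156 ± 0.075 TPM in WT libraries (SD, n = 11 and 4). Its log2 fold in the fit with the lower minimum was 0.19 ± 0.07 (limma adjusted p = 0.766).

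The other 3 members did not separate the groups. Tlr3, the double-stranded RNA receptor (chr8:45395665-45411080, minus strand), averaged 3.12 ± 0.44 TPM in AppNLGF vehicle and 3.00 ± 0.12 TPM in WT libraries. Myd88, the shared adaptor (chr9:119335934-119341411, minus strand), averaged 2.09 ± 0.40 and 2.02 ± 0.30 TPM in these groups. Tlr4, the lipopolysaccharide receptor to which Cd14 delivers its ligand (chr4:66827584-66930284, plus strand), averaged 0.762 ± 0.215 TPM in AppNLGF vehicle and 0.646 ± 0.145 TPM in WT libraries. The log2 folds of Tlr3, Myd88 and Tlr4 were 0.03 ± 0.14, 0.03 ± 0.11 and 0.09 ± 0.10, and a p above the threshold does not show that the groups are equal.

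Bases upstream of both annotated starts (RefSeq and GENCODE) are shown for the members that passed the test in at least 1 scaling. These genes were higher together in AppNLGF vehicle libraries. Where the starts differ, the bases end before the start further upstream, and those between the starts were not searched. The bases come from RefSeq promoters on GRCm38.p6, which hold 7 of the 10 members, 5 of them with bases before both starts. Cd14 is not shown. Searched on both strands were GAGGAA (a PU.1-type Ets core), TGANTCA (AP-1), the degenerate NF-kB consensus (set to its usual wide form after the windows were seen), TGACNNNGC (the core of the antioxidant response element, which NRF2 binds) and the interferon-stimulated response element. An AP-1 match followed by GC can also match the antioxidant response core. Capitals mark a match.
Ly86, chr13:37345095-37345207, plus strand: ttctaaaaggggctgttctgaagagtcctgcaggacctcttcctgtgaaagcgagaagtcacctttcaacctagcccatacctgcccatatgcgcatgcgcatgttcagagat
Tlr2, chr3:83841768-83841858, minus strand: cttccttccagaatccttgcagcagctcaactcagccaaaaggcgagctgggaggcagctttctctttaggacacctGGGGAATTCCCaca
Tlr13, chrX:106143025-106143203, plus strand: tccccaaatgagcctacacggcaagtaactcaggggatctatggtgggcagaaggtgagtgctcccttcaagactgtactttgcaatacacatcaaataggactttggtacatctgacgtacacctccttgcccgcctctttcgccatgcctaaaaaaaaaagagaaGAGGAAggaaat
Cd180, chr13:102693297-102693546, plus strand: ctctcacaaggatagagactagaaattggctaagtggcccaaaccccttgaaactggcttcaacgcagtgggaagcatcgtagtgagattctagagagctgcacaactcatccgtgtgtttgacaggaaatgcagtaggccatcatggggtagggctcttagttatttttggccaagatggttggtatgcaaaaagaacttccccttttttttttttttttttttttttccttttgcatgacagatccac
Tlr13 held 1 GAGGAA within 179 bases, as did 17.1% of 32841 promoter windows cut to that length. Tlr2 held 2 overlapping matches to the NF-kB consensus within 91 bases, a length at which 2.26% of all windows held a match. The windows of Ly86 and Cd180 held none of the 5 motifs, which says only that these letters are not in these bases. GAGGAA was present in 11.3% and 23.3% of all windows cut to the lengths of Ly86 and Cd180, and the NF-kB consensus in 3% and 7.25%. A match is a description of the letters and not a site shown to be bound.

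Microglia genes moved in the same comparison. Of 18 microglia markers 4 were called and higher (median log2 fold 0.40), and of 15 plaque-associated microglia genes 9 (median 1.14), beside 0.28% of all genes. After median-ratio scaling 8 and 12 were called, beside 0.691% of all genes. The summed TPM of the 18 microglia markers had a median of 387 (range 293 to 424) in AppNLGF vehicle and of 248 (238 to 254) in WT libraries, without overlap. Markers of monocytes, neutrophils, lymphocytes and border macrophages were scarce. The summed TPM of 10 monocyte and neutrophil genes had medians of 0.776 and 1.25 in AppNLGF vehicle and WT libraries. Ly6g was at 0 in every library of both groups. The medians of the summed TPM were 0.728 and 0.723 for 8 lymphocyte genes, and 3.41 and 3.52 for 8 border macrophage genes.

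With the mean of the microglia markers as a covariate, the log2 fold of Ly86 was 0.59 ± 0.12 on deposited TPM and 0.59 ± 0.14 on median-ratio scaled TPM, against 1.16 ± 0.19 without a covariate. That of Cd14 was 0.83 ± 0.16 and 0.91 ± 0.19, close to its value without a covariate. The calls depended on the scaling: with deposited TPM the covariate gave adjusted p of 0.00759 for Cd14 and 0.0107 for Ly86 while 18.5% of all genes were called, and with scaled TPM adjusted p of 0.052 for Cd14 and 0.141 for Ly86 while 0.101% of all genes were called (limma). Cd180 had 0.18 ± 0.16 and 0.25 ± 0.19 with the covariate. Tlr3 was lower by the covariate fit on deposited TPM (-0.34 ± 0.10, adjusted p = 0.0312) and not called on scaled TPM (-0.22 ± 0.11, adjusted p = 0.601). Because the marker levels of the 2 groups do not overlap, the covariate and the genotype cannot be told apart in full.

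**Figure D2:**
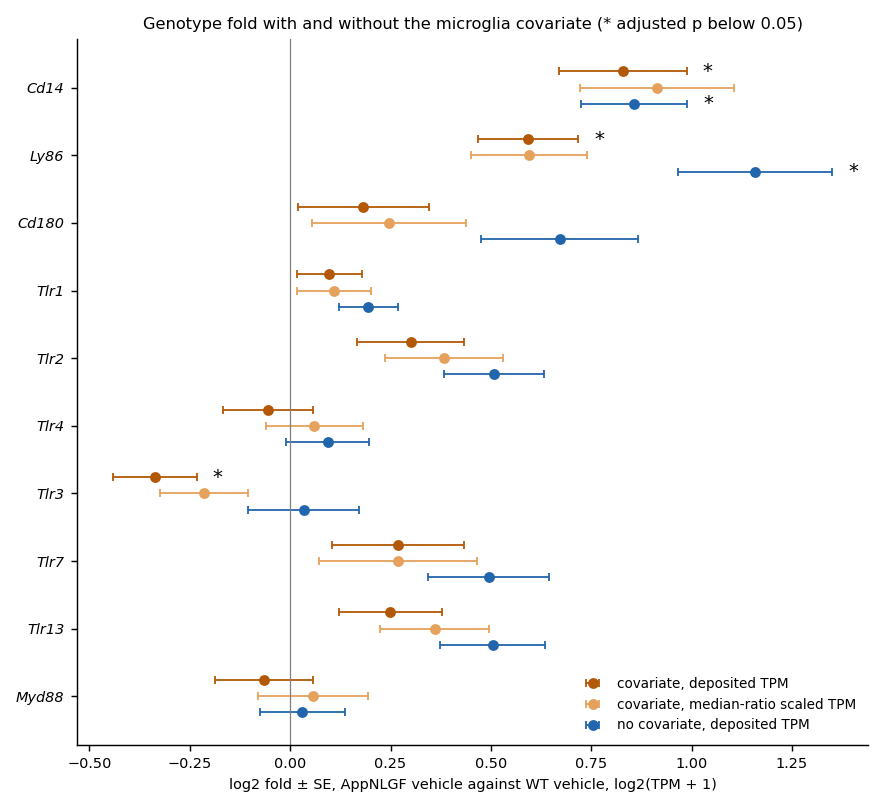
Log2 fold ± SE of the 10 genes in AppNLGF vehicle against WT vehicle, with the mean of 18 microglia markers as a covariate on deposited TPM and on median-ratio scaled TPM, and without a covariate. The fold of Cd14 stays between 0.83 and 0.91, while that of Ly86 is 1.16 without and 0.59 with the covariate; asterisks mark an adjusted p below 0.05.

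Among 65 other genes of the pathway (receptors, accessory proteins, kinases, transcription factors, inhibitors and target genes), 36 were tested. In AppNLGF vehicle against WT 2 of them were called higher and none lower, beside 0.28% of all genes called. Their median log2 fold was -0.01. The target gene Ccl3, a chemokine that is also on the plaque-associated list, averaged 3.15 ± 1.36 TPM in AppNLGF vehicle and 0.0915 ± 0.183 TPM in WT libraries (log2 fold 1.87 ± 0.27, limma adjusted p = 0.000202). Itgb2, the integrin chain shared by microglial complement receptors, averaged 3.10 ± 0.45 and 1.69 ± 0.13 TPM in these groups (log2 fold 0.60 ± 0.12, adjusted p = 0.0152). After scaling 5 of the 36 were called, all higher, beside 0.691% of all genes. The transcription factor genes Irf8 (0.64, limma adjusted p = 0.00418) and Irf5 (0.41, adjusted p = 0.0111) were then called as well. So was Unc93b1, which carries nucleic acid receptors to endosomes (0.43, limma adjusted p = 0.0223). The remaining receptors were scarce, with means in AppNLGF vehicle libraries of 0.250 TPM for Tlr5, 0.257 TPM for Tlr6, 0.0760 TPM for Tlr8 and 0.723 TPM for Tlr9.

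The second comparison, AppNLGF 2P-Im against AppNLGF vehicle, asks whether the compound moved the genes in the amyloid model. None of the 7 tested members was called, beside 0.0536% of all genes (9 of 16776 by limma, with 1036 at an unadjusted p below 0.05). At an unadjusted p below 0.05 stood 2 members, Cd14 and Tlr7, both lower. After median-ratio scaling again no member was called, beside 0.286% of all genes. The median log2 fold was -0.18 over the 7 members and -0.04 over all genes.

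Cd14 had the largest difference of the members. Its lowest, median and highest values were 1.29, 1.85 and 2.98 TPM in AppNLGF 2P-Im libraries, against 2.06, 2.97 and 3.73 TPM in AppNLGF vehicle libraries. Of the 13 AppNLGF 2P-Im libraries 7 were below every vehicle library and 12 were below the vehicle median. The log2 fold was -0.38 ± 0.09 (limma p = 0.000326, adjusted p = 0.228), and -0.35 ± 0.10 after scaling (adjusted p = 0.101). With the microglia covariate it was -0.37 ± 0.10 (adjusted p = 0.179), while the summed microglia markers had medians of 378 and 387 TPM in AppNLGF 2P-Im and vehicle. Without libraries 1 and 2 of AppNLGF 2P-Im it was -0.35 ± 0.10 (adjusted p = 0.384).

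Ly86 ranged from 4.45 through 11.0 to 15.9 TPM in AppNLGF 2P-Im libraries, against 8.35, 14.0 and 15.2 TPM in AppNLGF vehicle libraries. Its log2 fold was -0.22 ± 0.13 (limma adjusted p = 0.778). The lowest 2 of its values, 7.03 and 4.45 TPM, belonged to libraries 1 and 2, and without them the log2 fold was -0.07 ± 0.09.

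Tlr7 ranged from 0.772 through 2.09 to 2.68 TPM in AppNLGF 2P-Im libraries, against 1.61, 2.48 and 3.09 TPM in AppNLGF vehicle libraries (log2 fold -0.22 ± 0.11, limma adjusted p = 0.778). Without libraries 1 and 2 the log2 fold of Tlr7 was -0.13 ± 0.09. Tlr13 ranged from 0.520 through 1.02 to 1.66 TPM in AppNLGF 2P-Im libraries, against 1.03, 1.29 and 1.83 TPM in AppNLGF vehicle libraries, and 7 of the 13 were below every vehicle library. Its log2 fold was -0.18 ± 0.09 (adjusted p = 0.778), and -0.11 ± 0.08 without libraries 1 and 2.

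For the other 6 members the means of the 2 groups lay close together. Cd180 averaged 2.53 ± 0.96 TPM in AppNLGF 2P-Im and 2.68 ± 0.61 TPM in AppNLGF vehicle (SD, n = 13 and 11), Tlr2 0.871 ± 0.293 and 0.910 ± 0.272 TPM, and Tlr1 0.321 ± 0.118 and 0.322 ± 0.085 TPM. Tlr3 averaged 3.21 ± 0.83 and 3.12 ± 0.44 TPM, Tlr4 0.778 ± 0.222 and 0.762 ± 0.215 TPM, and Myd88 1.97 ± 0.31 and 2.09 ± 0.40 TPM in these groups. Without libraries 1 and 2 of AppNLGF 2P-Im the log2 folds were 0.02 ± 0.12 for Cd180, 0.03 ± 0.08 for Tlr2, 0.02 ± 0.05 for Tlr1, 0.10 ± 0.08 for Tlr3, 0.04 ± 0.08 for Tlr4 and -0.03 ± 0.07 for Myd88, none of them called. None of the 36 tested genes of the wider pathway was called. The smallest unadjusted p belonged to Nfkbiz, a regulator of NF-kB target genes (log2 fold 0.19 ± 0.07, limma adjusted p = 0.619), and to Hsp90b1, a chaperone of the receptors (-0.20 ± 0.07, adjusted p = 0.623).

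The difference of Cd14 was also taken within subsets of the libraries, by library number and by the level of Xist, which was above 10 TPM in 7 of 13 AppNLGF 2P-Im and 5 of 11 AppNLGF vehicle libraries. Cd14 had been chosen for its difference in these same libraries and both splits reuse them, so the subset values describe it and are no independent support. Among libraries numbered 1 to 5 Cd14 averaged 2.02 ± 0.47 TPM in AppNLGF 2P-Im and 3.01 ± 0.47 TPM in AppNLGF vehicle (n = 5 each, two-sided exact permutation p = 0.0159). Among those numbered 6 and above the means were 1.99 ± 0.55 and 2.79 ± 0.64 TPM (n = 8 and 6, exact permutation p = 0.0293). With Xist above 10 TPM they were 1.93 ± 0.49 and 2.85 ± 0.65 TPM (n = 7 and 5, exact permutation p = 0.0227), and with Xist at 10 TPM or less 2.08 ± 0.56 and 2.93 ± 0.52 TPM (n = 6 each, exact permutation p = 0.026). Each of these p was 0.0879 after adjustment over the 12 subset tests made for Cd14, Ly86 and Tlr7. After median-ratio scaling the subset with Xist above 10 TPM had an exact permutation p of 0.0606 (adjusted p = 0.145). Each other subset of Cd14 had an exact permutation adjusted p of 0.101 after scaling.

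For Ly86, libraries numbered 1 to 5 averaged 8.72 ± 3.03 TPM in AppNLGF 2P-Im and 11.9 ± 2.22 TPM in AppNLGF vehicle, and libraries numbered 6 and above 13.0 ± 2.07 and 13.9 ± 1.60 TPM (exact permutation adjusted p = 0.197 and 0.396). With Xist above 10 TPM Tlr7 averaged 2.32 ± 0.41 TPM in AppNLGF 2P-Im and 2.75 ± 0.27 TPM in AppNLGF vehicle, and with Xist at 10 TPM or less 1.64 ± 0.48 and 2.26 ± 0.51 TPM. Across groups the log2 difference of Tlr7 between libraries above and at or below 10 TPM of Xist was 0.29 ± 0.09 (limma p = 0.00433, adjusted p = 0.766), and 0.34 ± 0.08 after scaling (adjusted p = 0.235). Tlr13, also on the X chromosome, showed 0.02 ± 0.09.

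**Figure D3:**
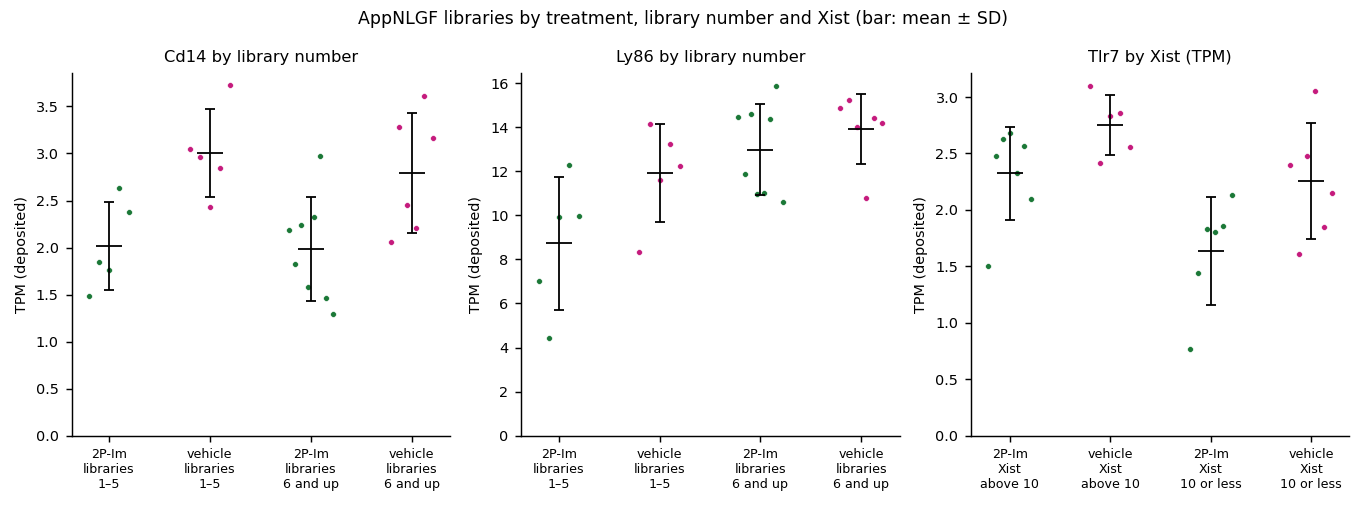
TPM of Cd14 and Ly86 in AppNLGF 2P-Im and AppNLGF vehicle libraries numbered 1 to 5 and 6 and above, and of Tlr7 in libraries with Xist above 10 TPM and at 10 TPM or less; points are libraries and bars the mean ± SD. Cd14 is lower in 2P-Im in both ranges of library numbers, and the lowest 2 Ly86 values lie among libraries 1 to 5 of 2P-Im.

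Against WT vehicle, AppNLGF 2P-Im libraries gave 1 called member of 7, Ly86, beside 0.262% of all genes. This comparison shares the WT libraries with the first one and the AppNLGF 2P-Im libraries with the second. Ly86 averaged 11.3 ± 3.19 TPM in AppNLGF 2P-Im and 5.23 ± 0.70 TPM in WT libraries, and 12 of 13 AppNLGF 2P-Im libraries were above every WT library. Its log2 fold was 0.94 ± 0.19 (limma adjusted p = 0.0182). The call was lost without WT library 1 (0.90 ± 0.21, limma adjusted p = 0.138), library 2 (0.89 ± 0.21, adjusted p = 0.109) or library 4 (0.95 ± 0.21, adjusted p = 0.0959), while the fold changed little. It was also lost with a term for Xist (0.84 ± 0.20, adjusted p = 0.0948, with 0.137% of genes called). Without libraries 1 and 2 of AppNLGF 2P-Im the log2 fold of Ly86 was 1.09 ± 0.13 (limma adjusted p = 3.51e-06, with 0.446% of genes called). These libraries held the lowest Ly86 values of their group, so leaving them out raises the fold by construction.

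Cd14 had a log2 fold of 0.48 ± 0.13 against WT (limma adjusted p = 0.219), with 12 of 13 AppNLGF 2P-Im libraries above every WT library. In the fit with the lower minimum Tlr2 had 0.48 ± 0.12 (adjusted p = 0.192, with 0.19% of genes called), and 0.49 ± 0.11 after scaling (adjusted p = 0.0234, with 0.474% called). Without libraries 1 and 2 Tlr2 was called also on deposited TPM (0.54 ± 0.11, adjusted p = 0.0279, with 0.338% called). Cd180 had 0.58 ± 0.19 (adjusted p = 0.447), Tlr13 0.33 ± 0.13 (adjusted p = 0.564) and Tlr7 0.27 ± 0.15 (adjusted p = 0.676). The remaining members had 0.19 ± 0.07 (Tlr1), 0.11 ± 0.10 (Tlr4), 0.04 ± 0.13 (Tlr3) and -0.02 ± 0.10 (Myd88). After scaling 1 of the 7 tested members was called, beside 0.715% of all genes.

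Without libraries 1 and 2 of AppNLGF 2P-Im, Cd180 had 0.70 ± 0.17 against WT (limma adjusted p = 0.0572), Cd14 0.50 ± 0.13 (adjusted p = 0.125), Tlr13 0.40 ± 0.12 (adjusted p = 0.218) and Tlr7 0.36 ± 0.12 (adjusted p = 0.422) on deposited TPM. With scaling as well, a combination chosen after seeing the data, Ly86, Cd180 (0.71 ± 0.14, adjusted p = 0.00662) and Tlr13 (0.40 ± 0.09, adjusted p = 0.0241) were called, beside 0.874% of all genes. The folds of Tlr1, Tlr4, Tlr3 and Myd88 without these libraries were 0.22 ± 0.07, 0.13 ± 0.10, 0.14 ± 0.11 and 0.00 ± 0.10, none of them called.

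In APP/TAU brains of 11 months no member was called in any of the 3 comparisons, and none had an unadjusted p below 0.05. Over all 17592 genes tested, 0.0227% were called in APP/TAU vehicle against WT, 0% in APP/TAU 2P-Im against APP/TAU vehicle (limma; 4719 genes at an unadjusted p below 0.05) and 0.0227% in APP/TAU 2P-Im against WT. After scaling these shares were 0.0284%, 0.0114% and 0.0284%, again with no member called. On deposited TPM all genes shifted, with a median log2 fold of 0.18 in APP/TAU vehicle against WT and of -0.19 in APP/TAU 2P-Im against APP/TAU vehicle, and these medians were 0.00 after scaling. The 6 tested members had medians of 0.10 and -0.18 in these comparisons on deposited TPM, and of -0.03 and 0.00 after scaling.

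Ly86 had 5.89, 5.41, 5.03, 4.21 and 6.05 TPM in the APP/TAU 2P-Im libraries. It had 7.78, 6.96, 5.27, 4.77 and 6.07 TPM in APP/TAU vehicle, and 5.34, 4.07, 5.08, 5.14 and 5.81 TPM in WT vehicle libraries. The 3 groups overlapped. APP/TAU vehicle against WT gave a log2 fold of 0.23 ± 0.12 (limma adjusted p = 0.256), and 0.05 ± 0.13 after scaling.

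Cd14 had 0.839, 1.30, 1.29, 0.635 and 1.20 TPM in APP/TAU 2P-Im, 1.90, 1.20, 0.903, 1.10 and 0.963 TPM in APP/TAU vehicle, and 1.26, 0.436, 1.18, 1.14 and 1.33 TPM in WT vehicle libraries. Again the groups overlapped. The log2 fold of Cd14 was 0.10 ± 0.17 in APP/TAU vehicle against WT (limma adjusted p = 0.688) and -0.10 ± 0.17 in APP/TAU 2P-Im against APP/TAU vehicle (adjusted p = 0.668), and 0.00 ± 0.16 and 0.02 ± 0.16 after scaling.

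The other members also overlapped between the APP/TAU groups. Tlr3 averaged 4.14 ± 0.41 TPM in APP/TAU 2P-Im, 4.89 ± 0.70 TPM in APP/TAU vehicle and 4.54 ± 0.89 TPM in WT vehicle (SD, n = 5 each). Myd88 averaged 2.56 ± 1.01, 3.06 ± 1.01 and 2.44 ± 0.60 TPM in the same order of groups, and Cd180 1.45 ± 0.66, 1.35 ± 0.45 and 1.28 ± 0.45 TPM. Tlr7 averaged 0.845 ± 0.153, 1.11 ± 0.37 and 1.07 ± 0.20 TPM. Means of Tlr2, Tlr4 and Tlr13 lay between 0.636 and 0.971 TPM, and those of Tlr1 between 0.142 and 0.235 TPM. None of the 36 tested genes of the wider pathway was called; the smallest unadjusted p in APP/TAU vehicle against WT belonged to the NF-kB subunit gene Rela (log2 fold 0.35 ± 0.09, limma adjusted p = 0.121).

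**Figure D4:**
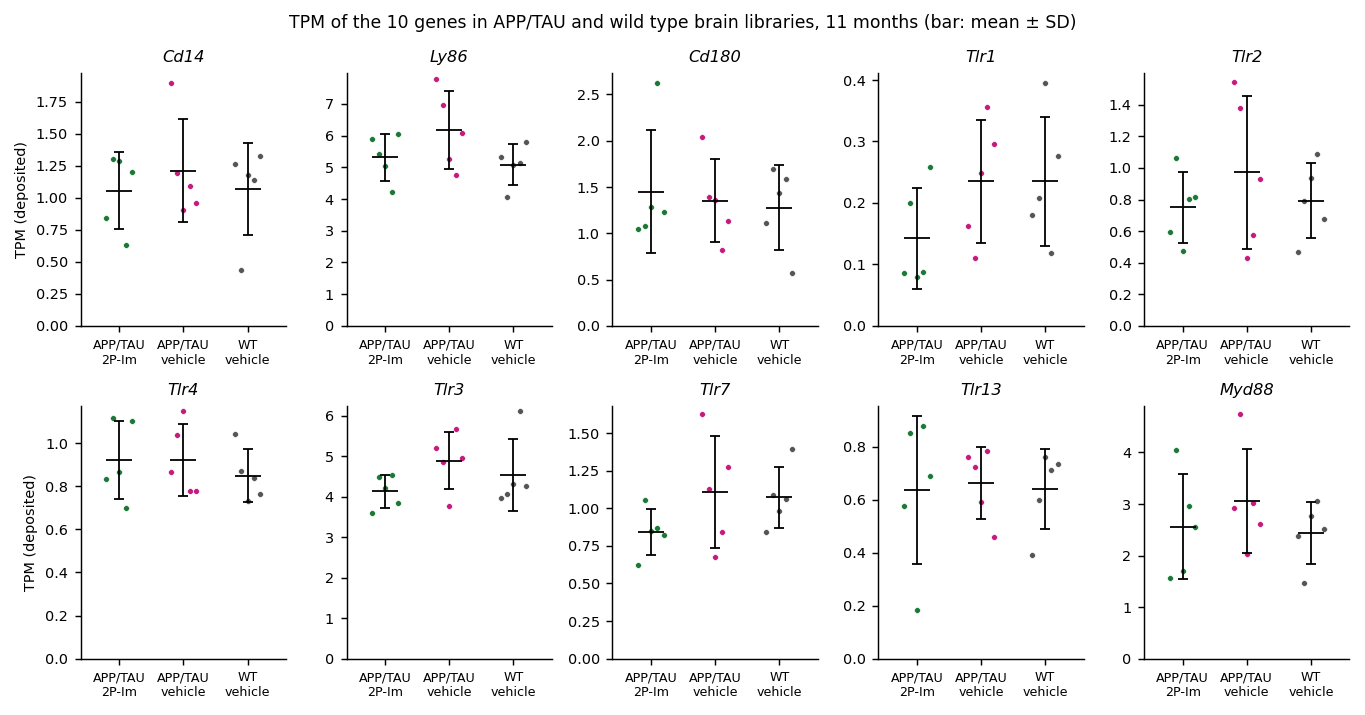
TPM of each of the 10 genes in 5 APP/TAU 2P-Im, 5 APP/TAU vehicle and 5 WT vehicle libraries of 11 months; points are libraries, bars the mean ± SD, and each panel has its own axis from 0. The 3 groups overlap for all 10 genes.

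The genotype fold of the members was then compared between the cohorts (AppNLGF vehicle against WT minus APP/TAU vehicle against WT, 16418 genes tested in both tables). On deposited TPM no member of 6 was called, beside 0.177% of all genes, and 4 members stood at an unadjusted p below 0.05. By that fit the difference in log2 fold was 0.93 ± 0.25 for Ly86 and 0.76 ± 0.20 for Cd14 (limma adjusted p = 0.097 for both). It was 0.62 ± 0.28 for Cd180 (adjusted p = 0.228) and 0.48 ± 0.21 for Tlr7 (adjusted p = 0.216). After scaling, Ly86 (1.13 ± 0.22, adjusted p = 0.00466) and Cd14 (0.87 ± 0.21, adjusted p = 0.0364) were called, beside 0.53% of all genes, both with the larger fold in the AppNLGF cohort. The treatment fold (2P-Im against vehicle) differed between the cohorts for none of the 6 members, beside 0.134% of all genes on deposited TPM and 0.0731% after scaling. For Cd14 the difference of the treatment folds was -0.28 ± 0.18 (adjusted p = 0.422).

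The cohorts differed in more than the model. The summed TPM of 5 cerebellar markers had medians of 7.65, 8.75 and 15.1 in AppNLGF 2P-Im, AppNLGF vehicle and their WT libraries, and of 423, 464 and 397 in APP/TAU 2P-Im, APP/TAU vehicle and their WT libraries. The summed TPM of 5 striatal markers had medians of 318, 298 and 394 in the AppNLGF cohort, in the same order. In the APP/TAU cohort these medians were 65.7, 79.5 and 83.2. Model, age, length of dosing, sampled tissue and table cannot be told apart in this comparison. Both medians also differed between AppNLGF vehicle and WT libraries of 6 months, with overlapping ranges. Striatal sums were 231 to 438 and 332 to 400 TPM, and cerebellar sums 5.7 to 19.1 and 7.9 to 18.5 TPM, in these groups. Whether this bears on the folds of AppNLGF vehicle against WT was not tested.

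**Figure D5:**
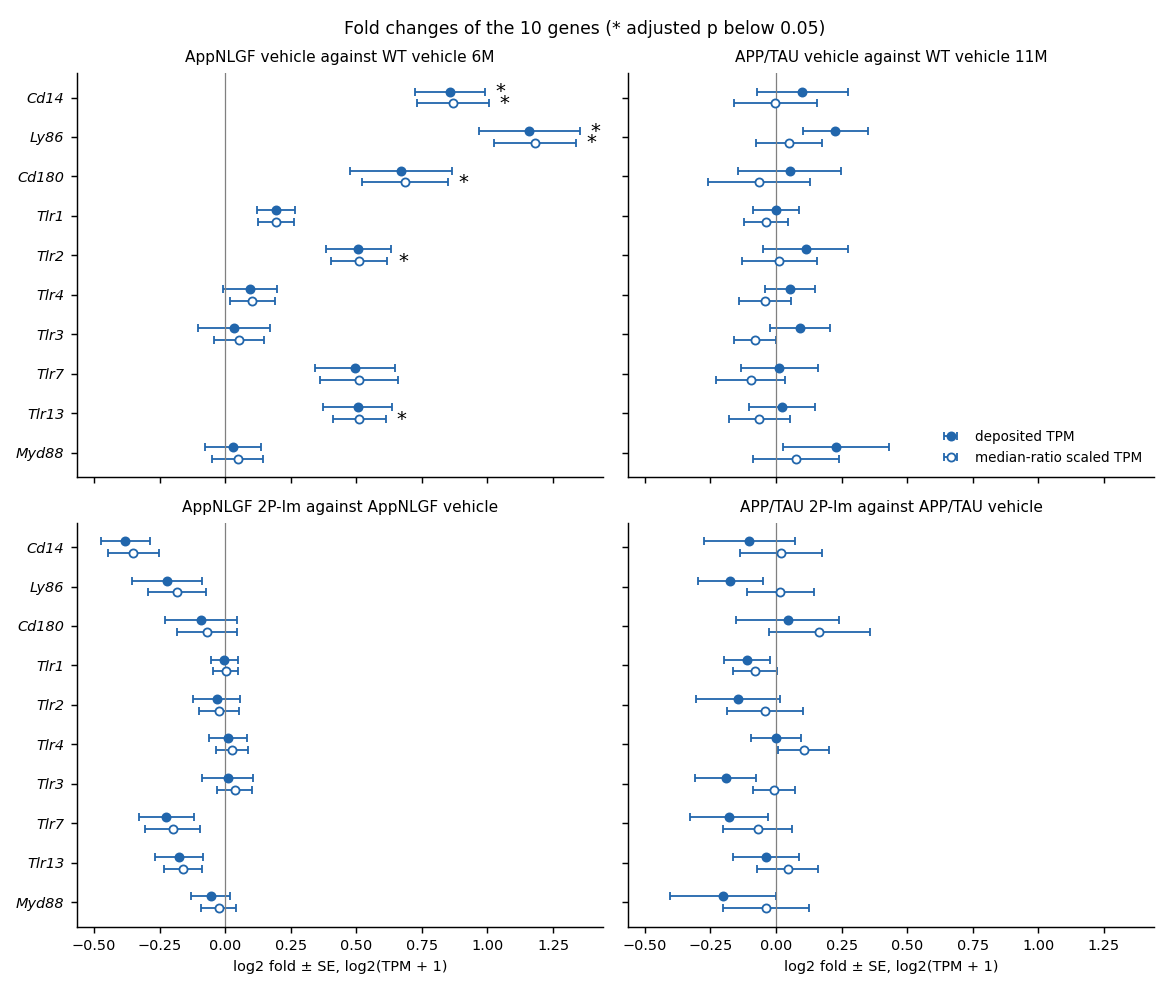
Log2 fold ± SE on the log2(TPM + 1) scale for the 10 genes in vehicle against WT (top) and 2P-Im against vehicle (bottom), in the AppNLGF cohort (left) and the APP/TAU cohort (right), on deposited TPM (filled) and median-ratio scaled TPM (open). Asterisks mark an adjusted p below 0.05. They stand only in the AppNLGF genotype panel, at Cd14 and Ly86 in both scalings and at Cd180, Tlr2 and Tlr13 in the scaled one. Members below a mean of 1 TPM are drawn from the fit with a minimum of 0.1 TPM. In that fit 4 of all 10 members were called in this panel after scaling, beside 0.453% of all genes.

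The tested genes most like a member across the 28 libraries of the AppNLGF table were named by Pearson's r on scaled values, as a description. The points share libraries and groups. For Ly86 the first was C1qa, a complement gene of microglia (r = 0.93, and 0.81 for deviations from the group means), followed by Ctss, Laptm5, Ctsd and Gfap. In the APP/TAU table (n = 15) the r of Ly86 and C1qa was 0.51. For Tlr2 they included Lyz2, a lysozyme gene of myeloid cells (r = 0.81, within groups 0.57), Mpeg1, Gfap and Cd68. In the APP/TAU table these had r of 0.70, 0.32, 0.72 and 0.39 with Tlr2. For Tlr7 they were Mertk, a phagocytic receptor gene (r = 0.84, within groups 0.76), Arhgap31, Gpt2, Havcr2 and Ctsb. Their r with Tlr7 in the APP/TAU table was lower, at 0.28, 0.28, 0.47, 0.17 and 0.36. Cd14 had lower values: C1qb (r = 0.70, within groups 0.31, APP/TAU 0.61), Itpr2 (0.69, within groups 0.54, APP/TAU -0.16), Ctsd, Tgfbr2 and Cst3.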

How the data were processed

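RNA from 43 mouse brain libraries was extracted with Sepasol and made into libraries with an MGIEasy directional kit on an MGISP-960 system, per the labels' protocols. Salmon and the build GRCm38 (mm10) are named in the submitters' processing notes; no source used here gives their versions or the annotation. TPM are the unit of the tables the authors deposited (a separate one per cohort), with a column per library. TPM hold no depth, are scaled to a fixed total per library, and so shift when a very abundant RNA differs. The AppNLGF table also lists single transcripts, and gene values do not include them.

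Libraries were grouped by title. Identifiers were matched to symbols for 51327 of 55804 gene rows, and positions are from GENCODE M21. Genes with a mean of at least 1 TPM were tested with limma 3.58.1 (R 4.3.3 with the package data.table, version 1.17.8) on log2(TPM + 1), with 1 mean per group, all 3 groups of a cohort in the same fit, trend moderation, two-sided tests and Benjamini-Hochberg adjustment over all tested genes. Folds between cohorts came from a fit of 6 group means. Permutation tests were exact, or used 1e+05 resamples, with scipy 1.17.1 (Python 3.11.15, numpy 2.4.6, pandas 2.3.3); figures used matplotlib 3.10.9. The code was tested on simulated data.

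The members, the pathway and marker lists, the tests and the alternatives were chosen with earlier results of these data known. Named were all members, the called pathway genes and those of smallest p in a comparison, and the 5 genes with the highest r to Cd14, Tlr2, Ly86 and Tlr7, of which 1 for Tlr2 is not reported here. The alternatives were median-ratio and quantile scaling, a pseudocount of 0.1, minimum means of 0.1, 5 or none, robust moderation, fits of only 2 groups, terms for replicate number, library number range, Xist or microglia markers, subsets of libraries, and leaving out each library. Combinations of these terms with scaling and the addition of transcript rows were chosen after seeing the data.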

Additional observations from a re-analysis of the deposited data

Results flagged for a closer look

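In 4 of 40 sets of a group and a member, 1 library lay far from the others of its group (Dixon's test at 95%, which chance passes in about 1 of 20 sets). Only the groups of 4 or 5 libraries were checked. AppNLGF vehicle (n = 11) and AppNLGF 2P-Im (n = 13) were not. The value was 0.0435 TPM for Tlr1 in WT vehicle library 2 of 6 months, below the rest. It was 0.436 TPM for Cd14 in WT vehicle library 2 of 11 months, also below the rest. It was 2.63 TPM for Cd180 in APP/TAU 2P-Im library 4 and 6.11 TPM for Tlr3 in WT vehicle library 4 of 11 months, both above the rest.

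The AppNLGF table lists single transcripts outside the gene values, 17 of them of the members. The Ly86 transcript averaged 0.579 TPM in AppNLGF 2P-Im, 0.477 TPM in AppNLGF vehicle and 0.222 TPM in WT vehicle libraries (two-sided exact permutation p = 0.00336 and 0.0117 against WT, adjusted p = 0.0706 and 0.104 over 21 tests). The Cd14 transcript averaged 0.271 TPM in AppNLGF 2P-Im, 0.424 TPM in AppNLGF vehicle and 0.0468 TPM in WT vehicle libraries, where 1 of 4 was above 0 (AppNLGF 2P-Im against WT, exact permutation p = 0.0294, adjusted p = 0.154). These signals in data outside the gene values were higher than in the WT libraries before the adjustment and did not pass after it.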

How the results depend on the processing

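In AppNLGF vehicle against WT vehicle, 2 members were called on deposited TPM, beside 0.28% of all genes. The count was 4 with median-ratio scaling (0.691% of all genes called) and 4 with quantile normalization (0.703%). It was 1 of 1 tested at a minimum mean of 5 TPM (0.302%). In libraries with Xist at or below 10 TPM it was 1 (Cd14, with Ly86 lost, 0.107%). With the microglia covariate on deposited TPM it was 3 (Cd14 and Ly86 higher, Tlr3 lower), but 18.5% of all genes were called. That covariate with an Xist term also gave 3, with a share of all genes not reported here. Apart from fits that left out 1 library, 17 to 3097 genes were called in this comparison at a minimum of 1 TPM. The microglia covariate on scaled TPM (added after seeing the data) gave 0, beside 0.101% of all genes. Each fit that left out 1 library gave 2, with 29 to 57 of all genes called. In AppNLGF 2P-Im against WT vehicle, 1 member was called. The count was 0 with an Xist term, in libraries with Xist at or below 10 TPM, with only the 2 groups compared, and with the microglia covariate on scaled TPM. It was 2 with the microglia covariate (28.8% of all genes called), the same with an Xist term (20.6%), the term for library numbers 1 to 5 against 6 and above (30.7%) or that term with scaling (0.751%), and with transcript rows added to their genes (0.279%). It was 3 with scaling and without AppNLGF 2P-Im libraries 1 and 2 (0.874%), and 0 to 1 when 1 library was left out. For the difference of the genotype folds between cohorts, 0 members were called on deposited TPM, 2 with median-ratio scaling (Ly86 and Cd14, both higher), 2 with quantile normalization (both higher), 2 with the microglia covariate (Cd14 higher at 0.75, Tlr3 lower at -0.40, Ly86 not called at an adjusted p of 0.0651; 48.9% of all genes called), and 0 to 1 when 1 library was left out: Ly86 was called without AppNLGF 2P-Im library 2 (adjusted p = 0.0321) or WT vehicle library 4 of 11 months (adjusted p = 0.0497). The other 5 comparisons gave 0 called members in every alternative run. The fold of Tlr3 in AppNLGF vehicle against WT turned to -0.34 with the microglia covariate and to -0.30 with that covariate and an Xist term. Of 3221 member folds recomputed, 183 others changed sign without passing the threshold before or after. The cause of these changes was not tested.

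Deviations of same-numbered libraries correlated at -0.08 to 0.01 (AppNLGF vehicle and WT), -0.02 to 0.05 (AppNLGF 2P-Im and WT) and -0.02 to 0.12 (AppNLGF 2P-Im and vehicle). Differently numbered libraries had -0.10 to 0.09, -0.09 to 0.11 and -0.15 to 0.18. Medians in that order were -0.02, 0.03 and 0.05 with the same number, and 0.006, -0.002 and 0.001 with different numbers. For APP/TAU 2P-Im and WT the medians were 0.07 and -0.01. The other pairs of APP/TAU groups had -0.01 with the same number. Whether the numbers pair the libraries is not settled by these values. With the replicate number as a block 2 members were called in AppNLGF vehicle against WT, with a share of all genes not reported here. The block gave 2 in AppNLGF 2P-Im against WT (19.2% of all genes called), and 2 also with median-ratio scaling (0.298%). It gave 2 for the difference of the genotype folds (29.4% of all genes). The block changed no other count of called members. No fit with an Xist term was made within the APP/TAU cohort, where no library was above 10 TPM of Xist. TPM without counts limit what can be said of the least abundant members (Tlr1, Tlr2, Tlr4, and Tlr13 in APP/TAU).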

Other observations

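In the transcripts listed outside the gene values, Tlr3 had 6 and Tlr7 had 3. The Tlr3 transcripts summed to 0.882 ± 0.746 TPM in AppNLGF 2P-Im and 1.77 ± 0.91 TPM in AppNLGF vehicle libraries (two-sided permutation p = 0.0148, adjusted p = 0.104 over 21 tests), while its gene value averaged 3.21 and 3.12 TPM in these groups. The Tlr7 transcripts were above 0 in 9 of 13 AppNLGF 2P-Im and 2 of 11 AppNLGF vehicle libraries, with means of 0.81 ± 0.62 and 0.30 ± 0.79 TPM (permutation p = 0.0825, adjusted p = 0.289). With transcripts added to their genes, no member was called in AppNLGF 2P-Im against AppNLGF vehicle.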
